A study of Mus musculus with 19 samples.

Results

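The thermogenic programme of fat is set by a small group of transcription factors and coactivators, and the expression of 10 of their genes was followed here through 19 mouse RNA-Seq libraries. The genes were the coactivators *Ppargc1a* and *Ppargc1b*, the lineage factors *Prdm16*, *Ebf2* and *Zfp516*, the estrogen-related receptors *Esrra*, *Esrrb* and *Esrrg*, and the factors *Irf4* and *Nrf1*. They were taken by symbol, with earlier results of these data known. All 10 are among the 55573 genes listed for 7 tissues and the 55487 genes listed for brown adipose tissue (BAT), and 9 are among the 13756 genes listed for inguinal white adipose tissue (iWAT), in which *Esrrb* is not listed. *Nrf1* is the gene of nuclear respiratory factor 1.

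PGC-1α, encoded by *Ppargc1a*, has no DNA-binding domain of its own and docks on nuclear receptors and other factors at their target genes. In brown and beige adipocytes, cold raises cyclic AMP through adrenergic signaling, which induces *Ppargc1a* through CREB and ATF2, and PGC-1α with its partners then drives *Ucp1*, the uncoupling protein, together with mitochondrial biogenesis. PRDM16 and EBF2 hold the identity of brown and beige adipocytes, whereas the estrogen-related receptors and NRF1 bind genes of the respiratory chain and of mitochondrial maintenance.

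The first set of libraries came from small intestine, liver, brain, heart, tibialis anterior muscle and the white and brown adipose tissues of C57BL/6J wild-type (WT) mice, with 1 library per tissue. Their age, and the depot of the white adipose tissue, are not given in the sources used here. The second set came from iWAT and BAT of male MCK-Musclin mice and WT control mice, 5 months old, with 3 libraries per genotype and depot. Every one of these 12 libraries was taken after 1 week in the cold (8 °C), so no library of warm-housed mice stands beside them. MCK-Musclin mice carry the coding sequence of the myokine Musclin behind the muscle creatine kinase (MCK) promoter on a C57BL/6J background. Several founder lines were made, and which one was sequenced is not given in the sources used here. The labels number the libraries of a group without naming the animals, and the methods of the study describe RNA-Seq samples as coming from separate mice.

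All values are FPKM, fragments per kilobase of exon scaled to the depth of the library, from 3 tables that the authors made separately, and levels in different tables are set side by side without a test. The number of reads is unknown. From the steps between low values, relative depth was between 0.917 and 1.05 of the heart library over the 7 tissues and between 0.892 and 1.11 of WT library 1 in BAT, and it is unknown in iWAT. The tissue labels had their markers, with *Ucp1* at 467 FPKM in brown adipose tissue and listed at 0 in white adipose tissue. *Ostn*, the gene of Musclin, was listed at 0 in every WT library of BAT and lay between 30.3 and 37.9 FPKM in the MCK-Musclin libraries. In iWAT, taking libraries 1 to 3 of each genotype in order, its values were 0, 0 and 0.225 for WT against 0, 5.17 and 4.21 for MCK-Musclin. *Ckm* and *Pvalb* of skeletal muscle were also at 0 in MCK-Musclin library 1 of iWAT, and *Ostn* gives no check of that library's label.

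Over the 7 tissues the coactivators had different profiles. *Ppargc1a* (ENSMUSG00000029167, minus strand of chromosome 5 of GRCm38, 51454250 to 51567726) had 19.96 FPKM in heart, 12.8 in brain, 9.17 in brown adipose tissue, 8.90 in small intestine, 3.85 in tibialis anterior muscle, 2.56 in white adipose tissue and 2.24 in liver. It was thus highest in heart, at 1.55 times the level of brain, and when the libraries were rescaled to TPM (FPKM brought to the same sum in every library) brain came first and heart second. *Ppargc1b* (ENSMUSG00000033871, on chromosome 18), the related coactivator PGC-1β, had 22.0 FPKM in brown adipose tissue, 8.75 in small intestine, 4.64 in heart, 2.51 in white adipose tissue, 2.39 in muscle, 2.36 in brain and 1.07 in liver. Brown adipose tissue held 50.3% of the *Ppargc1b* FPKM summed over tissues, and its level there was 2.49 times that of small intestine, or 1.77 times on the TPM scale. Brown fat thus led for *Ppargc1b* but not for *Ppargc1a*.

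The lineage factors also differed from each other. *Prdm16* had 8.00 FPKM in brown adipose tissue, 7.13 in small intestine, 4.58 in brain, 3.64 in muscle, 3.53 in white adipose tissue, 2.20 in heart and 0.297 in liver, and small intestine came first after rescaling to TPM. *Ebf2*, a factor of adipocyte precursors and of brown fat identity, had 10.8 FPKM in white and 10.7 in brown adipose tissue. It was at most 1.37 FPKM elsewhere, with 1.37 in heart, 0.550 in muscle, 0.251 in brain, 0.0822 in small intestine and a listed 0 in liver. *Zfp516*, a zinc-finger protein that binds the *Ucp1* promoter, had 4.06 FPKM in small intestine and 4.01 in white adipose tissue against 1.36 in brown adipose tissue. Its other values were 2.15 in brain, 1.52 in muscle, 1.27 in liver and 1.19 in heart.

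Among the estrogen-related receptors, *Esrra* was the most abundant in every tissue except brain, on the length-scaled FPKM. *Esrra* had 46.7 FPKM in small intestine, 26.3 in brown adipose tissue, 21.4 in heart, 19.4 in muscle, 11.9 in white adipose tissue, 7.89 in brain and 5.84 in liver. *Esrrg*, whose product acts in highly oxidative tissues, had 8.84 FPKM in brain, 6.92 in brown adipose tissue, 6.22 in heart, 2.68 in muscle, 1.53 in small intestine, 0.507 in liver and 0.401 in white adipose tissue. *Esrrb* had 2.49 FPKM in heart, 1.12 in muscle and 1.01 in brain. It was at 0.172 in small intestine, 0.0316 in brown adipose tissue and 0.0259 in liver and was listed at 0 in white adipose tissue. Brown adipose tissue therefore held *Esrra* and *Esrrg* messages and close to none of *Esrrb*.

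*Irf4*, which in adipocytes is induced by cyclic AMP and acts with PGC-1α and which also serves lymphocytes and plasma cells, had 8.94 FPKM in small intestine, 3.43 in white and 3.23 in brown adipose tissue. It was 0.50 in muscle, 0.289 in heart, 0.140 in liver and 0.0122 in brain. The summed FPKM of 14 lymphocyte and plasma cell markers was 2072 in small intestine, 34.1 in white fat and 11.2 in brown fat. The part of those cells in the *Irf4* level of intestine was not tested. *Nrf1* was detected in every tissue, with 9.64 FPKM in small intestine, 5.52 in white adipose tissue, 5.12 in muscle, 3.61 in brain, 3.54 in liver, 2.98 in heart and 2.42 in brown adipose tissue, its lowest tissue.

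**Figure D1:**
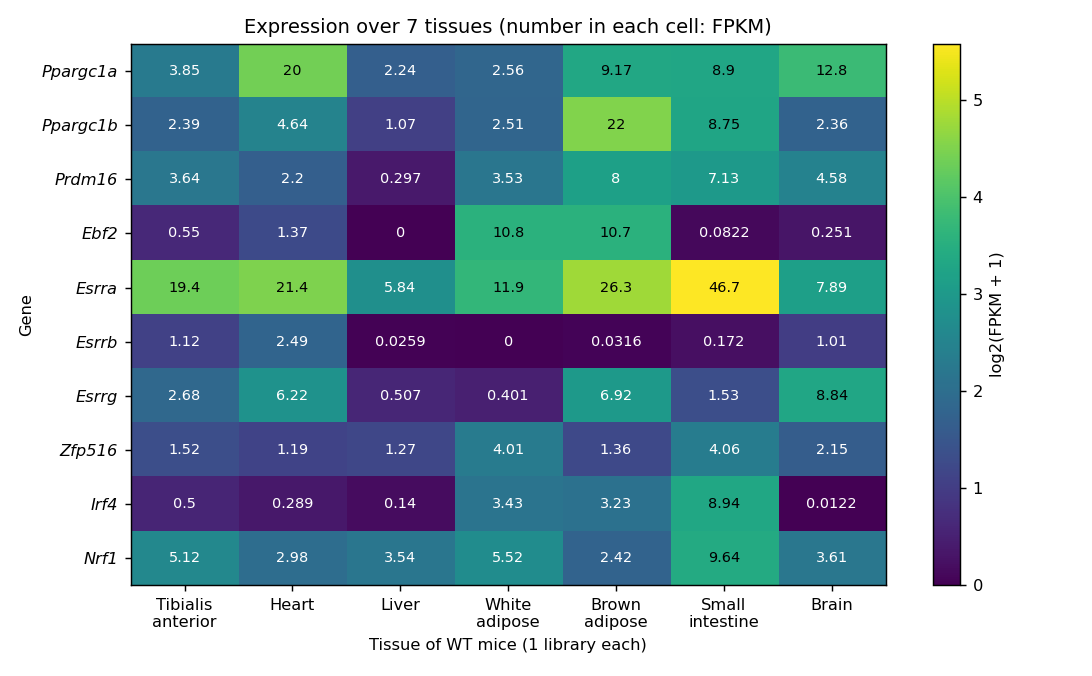
FPKM of the 10 genes (rows) in 7 tissues of WT mice (columns, 1 library each), with the value in each cell and colour on a log2(FPKM + 1) scale. *Ppargc1b* is highest in brown adipose tissue at 22.0 FPKM, *Ppargc1a* in heart at 19.96 FPKM, and *Ebf2* is high in both fat tissues only.

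With 1 library per tissue these profiles have no replicate check and no test. A highest tissue at least 2-fold over the next was seen for 3 of 10 genes, *Irf4* in small intestine (2.56 times), *Ppargc1b* in brown adipose tissue and *Esrrb* in heart (2.12 times). That share is below the 43.9% of all 18327 genes with at least 1 FPKM in some tissue. After rescaling to TPM the count was again 3, but the genes were *Irf4* (2.16 times), *Esrra* in small intestine (2.50 times) and *Esrrg* in brain (2.30 times), while *Esrrb* was at 1.42 times. No share of all genes was taken on the TPM scale. On FPKM and by tissue, the share of all genes was 11.9% for small intestine, 1.27% for brown adipose tissue and 1.3% for heart. Liver was the lowest tissue for *Ppargc1a*, *Ppargc1b*, *Prdm16*, *Ebf2* and *Esrra*.

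The contrast of brown with white adipose tissue in these WT mice divided the group. With 0.1 added to each FPKM, the level in brown adipose tissue was 14.0 times that in white for *Esrrg*, 8.46 times for *Ppargc1b*, 3.49 times for *Ppargc1a*, 2.23 times for *Prdm16* and 2.20 times for *Esrra*. These were 5 of the 9 genes with a mean of at least 1 FPKM over both tissues, where 6.37% of all 12603 such genes were at least 2-fold higher in brown. In the other direction *Zfp516* was 2.82 times and *Nrf1* 2.23 times higher in white adipose tissue, against a background of 36.1%. The ratio of brown to white was 0.99 for *Ebf2* and 0.94 for *Irf4*. *Esrra* varied widely in the cold WT libraries of BAT, from 10.6 to 40.9 FPKM, so its ratio from 1 library per tissue is uncertain. Over all genes the median ratio was 0.608, so equal FPKM already lies above the middle of the genes. The 10 genes with the highest FPKM held 52.4% of the brown and 17.0% of the white library, a difference that TPM does not remove. On the TPM scale the ratio was 9.31 for *Esrrg*, 5.11 for *Ppargc1b* and 2.10 for *Ppargc1a*, and it was 1.33 for *Prdm16* and 1.30 for *Esrra*, which left 3 genes past 2-fold. It was 0.588 for *Ebf2*, 0.561 for *Irf4*, 0.264 for *Nrf1* and 0.208 for *Zfp516*, all higher in white. The share of all genes past 2-fold was not taken on the TPM scale, and the 6.37% and 36.1% above hold for FPKM only.

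Each gene's nearest neighbours in tissue profile were named from all 18327 genes by Pearson's r of log2(FPKM + 1) over the 7 tissues. Since the points are single libraries of 1 table, the values are a description only. The gene closest to *Ppargc1b* was *Timm44* (r = 0.991), part of the motor that imports proteins into mitochondria, at 75.7 FPKM in brown adipose tissue, 50.3 in small intestine and 25.2 in liver. The closest to *Esrra* was *Mdh2* (r = 0.970), mitochondrial malate dehydrogenase of the citric acid cycle, followed by *Vdac2*, a channel of the mitochondrial outer membrane (r = 0.950). For *Ppargc1a* it was *Lyrm7*, an assembly factor of respiratory complex III (r = 0.941), with *Mrps33* of the mitochondrial ribosome also near (r = 0.927). The gene nearest to *Esrrg* was *mt-Rnr1*, the small ribosomal RNA of mitochondria (r = 0.972), with 1494 FPKM in brown and 210 in white adipose tissue. *Usp28* (r = 0.984) came second for *Esrrb*. The nearest genes had no mitochondrial name for *Zfp516*, *Irf4*, *Nrf1* and *Ebf2*, with *Snx5* of endosomal sorting for *Zfp516* (r = 0.992), the tyrosine phosphatase gene *Ptpn18* for *Irf4* (r = 0.989), *Rars* of arginine tRNA charging for *Nrf1* (r = 0.977) and *B430212C06Rik* for *Ebf2* (r = 0.985).

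In cold-exposed WT mice the same genes gave the following levels, with SD over 3 libraries each. *Ppargc1b* had 13.1 ± 3.36 FPKM in BAT and 3.66 ± 0.674 in iWAT. *Ppargc1a* had 9.79 ± 2.98 FPKM in BAT and 6.97 ± 0.393 in iWAT, and these ranges overlap. *Esrrg* had 4.84 ± 1.30 FPKM in BAT and 1.06 ± 0.538 in iWAT. *Nrf1* had 2.91 ± 0.489 FPKM in BAT and 6.00 ± 0.289 in iWAT, the reverse order. *Prdm16* was 5.09 ± 1.37 and 4.66 ± 0.310 FPKM, *Ebf2* was 6.59 ± 2.45 and 7.70 ± 1.32, and *Irf4* was 8.05 ± 5.39 and 13.7 ± 5.32 in BAT and iWAT, with overlapping ranges for all of them. *Zfp516* was 1.13 ± 0.302 FPKM in BAT and 2.30 ± 0.374 in iWAT, while *Esrra* was 20.9 ± 17.3 and 12.2 ± 0.321 FPKM. Summed FPKM was between 709981 and 720317 in these BAT libraries and between 364710 and 368500 in these iWAT libraries. The order of the depots can therefore change with scaling, and no rescaled values were compared.

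The comparison of MCK-Musclin with WT mice asks how the thermogenic programme of fat in the cold differs in mice that carry the Musclin transgene. In iWAT, the level of *Ppargc1a* was 7.16, 7.23 and 6.51 FPKM for WT against 6.34, 2.96 and 2.01 FPKM for MCK-Musclin (libraries 1 to 3 in order, as throughout). All 3 MCK-Musclin libraries were below the lowest WT library, libraries 2 and 3 far below and library 1 just under the WT range. The mean was 0.541 times that of WT, and the log2 fold change on the log2(FPKM + 1) scale was -0.84 (standard error 0.30, limma unadjusted p = 0.0244, adjusted p = 0.233). *Ppargc1a* was the only member past the study's cutoff for this depot, a log2 fold change beyond 0.5 at an unadjusted p under 0.05. The study applied this cutoff to DESeq2 tests. Here it was applied to limma on log2(FPKM + 1), so the genes and counts past it are not those of the study. At that cutoff 0.902% of the 12197 genes tested were lower and 5.04% higher. No gene of iWAT had an adjusted p under 0.05 (limma), or 0.0% of those tested, whereas 16.5% had an unadjusted p under 0.05. An exact two-sided permutation test of *Ppargc1a* gave p = 0.1, and no smaller p is possible with 3 libraries per genotype.

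The lower level of *Ppargc1a* did not depend on 1 library for its direction, but its place past the cutoff did. The log2 fold change ran from -1.20, when library 1 of MCK-Musclin was left out, to -0.56, when library 3 was. It missed the cutoff without library 1 or 2 of WT (-0.82 each) and without library 2 (-0.76) or 3 of MCK-Musclin. Centred on the general adipocyte markers it was -0.66 and missed the cutoff. These 9 markers were themselves all negative, with a median of -0.14. They include *Lipe* and *Pnpla2*, which the study reports as lowered by Musclin in cultured adipocytes. Centring can therefore also take out part of a genotype difference. In bulk tissue, fewer cells of a type and less RNA per cell cannot be told apart.

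*Ppargc1b* had 4.32, 2.97 and 3.70 FPKM in WT against 3.69, 1.82 and 1.75 in MCK-Musclin libraries. MCK-Musclin libraries 2 and 3 were again below every WT library, and library 1 lay inside the WT range. This gave a log2 fold change of -0.48 (standard error 0.23, limma adjusted p = 0.343), so the difference did not pass the test, and it was -0.73 without MCK-Musclin library 1.

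*Prdm16* (ENSMUSG00000039410, minus strand of chromosome 4, 154316125 to 154636873) also separated the groups, by a smaller amount. It had 4.32, 4.94 and 4.72 FPKM in WT against 3.71, 4.24 and 3.66 in MCK-Musclin libraries, with a log2 fold change of -0.22 (standard error 0.11, limma adjusted p = 0.362). Here all 3 MCK-Musclin libraries were close together. *Ebf2* had 6.54, 7.45 and 9.13 FPKM in WT libraries against 4.81, 5.47 and 7.52 in MCK-Musclin libraries, with overlapping groups and a log2 fold change of -0.34 (standard error 0.18, limma adjusted p = 0.386). *Zfp516* had 2.21, 1.98 and 2.71 FPKM in WT against 2.75, 2.30 and 1.92 in MCK-Musclin libraries, a log2 fold change of 0.01 (95% interval -0.33 to 0.35).

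*Esrra* (ENSMUSG00000024955, minus strand of chromosome 19, 6910977 to 6921813) had 12.5, 12.1 and 11.9 FPKM in WT against 12, 8.38 and 9.65 in MCK-Musclin libraries. Library 1 of MCK-Musclin was again at the WT level and the other two were below it, with a log2 fold change of -0.27 (standard error 0.13, limma adjusted p = 0.356). Its exons overlap those of *Trmt112*, and the alignment did not use strand, so reads of these genes cannot be told apart in the shared stretch. *Esrrg* had 0.666, 0.849 and 1.68 FPKM in WT against 1.61, 0.957 and 0.486 in MCK-Musclin libraries, with a log2 fold change of -0.04 (95% interval -0.64 to 0.56).

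*Irf4* had 9.48, 19.6 and 11.8 FPKM in WT against 13.1, 9.77 and 12.9 in MCK-Musclin libraries, a log2 fold change of -0.13 (95% interval -0.72 to 0.45). The 14 lymphocyte and plasma cell markers were higher in MCK-Musclin mice, with a summed FPKM of 387, 301 and 319 in WT against 505, 590 and 608 in MCK-Musclin libraries. All 14 were higher and 13 had an unadjusted p under 0.05 (limma), against 16.5% of all genes in either direction, and none of the 14 was at 0 in any library. The 8 macrophage and dendritic cell markers summed to 462 to 528 FPKM in WT and 512 to 718 in MCK-Musclin libraries. The part of these cells in the *Irf4* values was not tested.

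*Nrf1* (ENSMUSG00000058440, plus strand of chromosome 6, 30047988 to 30153458) went the other way. It had 6.28, 5.70 and 6.03 FPKM in WT against 6.65, 7.03 and 8.54 in MCK-Musclin libraries, so that every MCK-Musclin library was above every WT library. This corresponds to a log2 fold change of 0.26 (standard error 0.12, limma adjusted p = 0.328), and over the alternatives the adjusted p ran from 0.0965 to 0.602.

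Of the 9 members tested in iWAT, 7 had a negative and 2 a positive log2 fold change, with a median of -0.22. *Irf4* and *Esrrg* turned positive with centring on general adipocyte markers, and *Zfp516* turned negative with TPM or median-ratio scaling. This compares with 38.7% of genes negative and a median of 0.06 over all genes tested. *Ppargc1a* and *Prdm16* were lower without overlap between the groups, which 5.44% of all genes were. *Nrf1* was higher without overlap, which 17.9% of all genes were. Separation alone was thus common in this depot, more so upward.

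**Figure D2:**
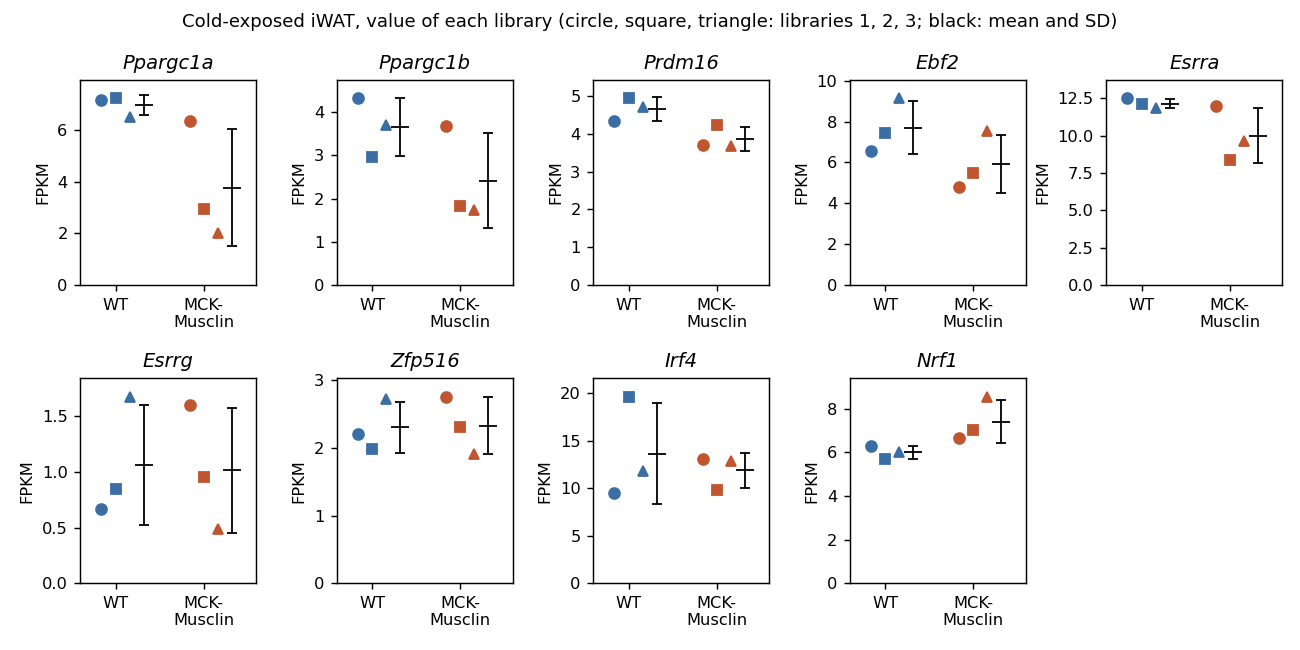
FPKM of 9 genes in each iWAT library after cold exposure, WT in blue and MCK-Musclin in orange, with circles, squares and triangles for libraries 1 to 3 and the mean with SD in black. For *Ppargc1a*, MCK-Musclin libraries 2 and 3 lie at 2.96 and 2.01 FPKM and library 1 at 6.34 FPKM, under the WT range of 6.51 to 7.23 FPKM.

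*Ppargc1a*, *Prdm16* and *Nrf1* are the members whose iWAT libraries did not overlap between genotypes. The 250 bases upstream of a RefSeq start site of each are shown (GRCm38.p6, each 5′ to 3′ on the strand of its gene). Capitals mark matches on either strand to TGACG, the core of the cyclic AMP response element that CREB and ATF2 bind, to the CCAAT box (CCAAT) and to the GC box of Sp1 (GGGCGG). The windows are chr5:51567726-51567975 on the minus strand, chr4:154636874-154637123 on the minus strand and chr6:30047738-30047987 on the plus strand.
Ppargc1a: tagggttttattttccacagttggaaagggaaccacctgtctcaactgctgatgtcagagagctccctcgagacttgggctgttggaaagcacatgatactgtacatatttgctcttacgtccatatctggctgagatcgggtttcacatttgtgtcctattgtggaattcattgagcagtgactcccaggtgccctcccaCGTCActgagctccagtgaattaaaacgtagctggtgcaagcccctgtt
Prdm16: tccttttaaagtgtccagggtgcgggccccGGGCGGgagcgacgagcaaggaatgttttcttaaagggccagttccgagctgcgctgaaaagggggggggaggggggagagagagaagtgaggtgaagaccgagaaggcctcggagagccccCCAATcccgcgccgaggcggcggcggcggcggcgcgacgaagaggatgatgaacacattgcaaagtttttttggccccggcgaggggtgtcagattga
Nrf1: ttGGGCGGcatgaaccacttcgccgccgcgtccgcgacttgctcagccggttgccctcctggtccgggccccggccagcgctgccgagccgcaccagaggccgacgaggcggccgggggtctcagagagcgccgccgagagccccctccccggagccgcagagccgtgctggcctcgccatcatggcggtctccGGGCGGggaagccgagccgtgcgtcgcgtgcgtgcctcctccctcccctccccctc

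The *Ppargc1a* window holds 1 match to TGACG, read on the opposite strand and beginning 49 bases before the start site, and no CCAAT or GC box. *Prdm16* holds a CCAAT box and a GC box, and the *Nrf1* window shown has GC boxes. Another RefSeq window of *Nrf1*, chr6:30076071-30076370, has a CCAAT box and no GC box, with 46.3% G and C and 2 CpG dinucleotides. TGACG was found in 20.8% of all 32851 promoter windows of 300 bases, the CCAAT box in 37.4% and the GC box in 35.7%. The windows shown differ in base composition, counted here with the 50 bases after the start site. That of *Ppargc1a* has 48.7% G and C with 5 CpG dinucleotides, *Prdm16* has 61% with 24 and *Nrf1* has 77% with 43. The median of all windows is 52.7% with 7. The whole cyclic AMP response element (TGACGTCA), the estrogen-related receptor element (TNAAGGTCA) and the E-box (CACGTG) had no match on either strand in any of the 12 windows of 7 members. These letters occur in 1.79%, 1.28% and 7.15% of all windows. Of the other members, *Esrrb* has 2 matches to TGACG in 1 of its windows, and no window was used for *Ebf2*, *Ppargc1b* and *Zfp516*.

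In iWAT, all 12 thermogenic target genes had a negative log2 fold change, with a median of -1.36. Of these, 9 were past the cutoff, against 0.902% of all genes lower there, although none of the 12 had an adjusted p under 0.05 (limma). *Ucp1* had 130, 248 and 346 FPKM in WT against 173, 31.6 and 2.91 in MCK-Musclin libraries. *Fabp3*, a fatty acid binding protein of oxidative tissues, had 18.4, 52.1 and 104 FPKM in WT against 21.2, 6.83 and 2.14 in MCK-Musclin libraries. *Elovl3*, a fatty acid elongase induced in brown fat by cold, had 5.39, 7.61 and 9.58 against 5.79, 0.708 and 0.30 FPKM. In each of these genes MCK-Musclin library 1 lay within the WT range and libraries 2 and 3 were below it. *Kcnk3*, a potassium channel of thermogenic adipocytes, was the only one of the 12 without overlap, with 8.57 to 10.5 FPKM in WT against 7.10, 4.80 and 3.00 in MCK-Musclin libraries (log2 fold change -0.84, limma adjusted p = 0.181). Of all genes, 5.44% were lower without overlap.

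Relative to the WT mean, the median target gene stood at 0.767, 0.293 and 0.0862 in MCK-Musclin libraries 1 to 3, while the WT libraries themselves stood at 0.660, 1.02 and 1.28. *Ppargc1a* in the same libraries stood at 0.910, 0.425 and 0.289, and *Ppargc1b* at 1.01, 0.498 and 0.477. MCK-Musclin libraries 2 and 3 were thus the lowest in both *Ppargc1a* and the median target gene. WT library 1 did not follow this, with the median target gene at 0.660 and *Ppargc1a* at 1.03. The target genes spread more widely among WT libraries than *Ppargc1a*, which ran from 0.935 to 1.04. A link between *Ppargc1a* and these genes was not tested. The 10 fast skeletal muscle markers were also all negative, with a median of -2.25, and none had an unadjusted p under 0.05 (limma). Their summed FPKM was 9.01, 575 and 2953 in WT libraries, in the order of the target medians. In MCK-Musclin libraries it was 8.03, 107 and 119, the reverse of the order of the target medians there. All 14 lymphocyte and plasma cell markers were positive, with a median of 0.71. The part of these cells in the target values was not tested. Without WT library 3 the number of targets past the cutoff was 1 and without MCK-Musclin library 3 it was 3, with all 12 still negative.

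**Figure D3:**
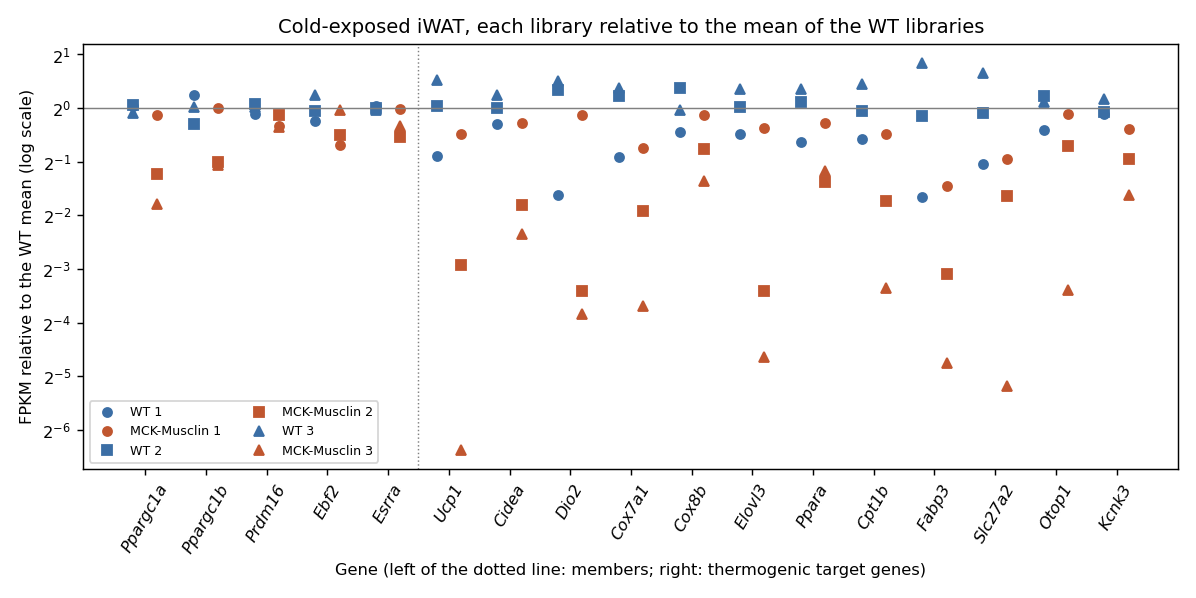
FPKM of 5 members (left of the dotted line) and 12 thermogenic target genes (right) in each iWAT library, divided by the mean of the WT libraries, on a log axis. WT libraries are blue and MCK-Musclin libraries orange, and MCK-Musclin library 3 reaches 0.0121 for *Ucp1* while it stands at 0.289 for *Ppargc1a*.

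Among 16 genes of oxidative metabolism that the estrogen-related receptors and PGC-1 coactivators are known to drive, 15 had a negative log2 fold change in iWAT, with a median of -0.44. Of these, 10 had an unadjusted p under 0.05 (limma), against 16.5% of all genes in either direction. Past the cutoff were 6, against 0.902% of all genes lower there. Lower without overlap between groups were 7, against 5.44% of all genes. *Idh3a* of the citric acid cycle had 242, 286 and 269 FPKM in WT against 229, 176 and 134 in MCK-Musclin libraries (log2 fold change -0.59, limma adjusted p = 0.208). *Acadm*, the medium-chain acyl-CoA dehydrogenase, had 324, 321 and 426 against 309, 227 and 186 FPKM. The exception was *Ndufs3* of complex I, at 53.2, 56.4 and 37.7 against 49.7, 53.4 and 51.2 FPKM. None of the 16 was past the cutoff without MCK-Musclin library 3 or with centring on general adipocyte markers.

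Other regulators had smaller fold changes. Of 25 further factors of brown and beige fat 24 were tested, 15 had a negative log2 fold change, the median was -0.11 (0.07 with centring on general adipocyte markers) and none was past the cutoff. *Nfia*, a factor that acts upstream of brown fat genes, had 5.24, 6.33 and 5.59 FPKM in WT against 4.76, 3.64 and 3.70 in MCK-Musclin libraries (log2 fold change -0.42, limma adjusted p = 0.196). *Ewsr1* was higher, at 174 to 209 FPKM in WT and 219 to 270 in MCK-Musclin libraries (log2 fold change 0.43, limma adjusted p = 0.184). These were the only ones with an unadjusted p under 0.05, and *Perm1* was not tested because its mean was under 1 FPKM. *Pparg*, the master factor of adipocytes, had 105, 73.7 and 98.5 FPKM in WT against 63.2, 84.5 and 57.2 in MCK-Musclin libraries (log2 fold change -0.43, limma adjusted p = 0.304).

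None of 13 repressors of the programme, among them *Nrip1* and *Zfp423*, had an unadjusted p under 0.05 in iWAT (limma), and their median was 0.04, -0.010 after rescaling to TPM and 0.22 with centring on general adipocyte markers, where 12 of 13 were positive. The 12 genes that replicate, transcribe and translate the mitochondrial genome, several of them NRF1 targets, had a median of 0.03, -0.022 after rescaling to TPM and 0.20 with that centring, where 10 of 12 were positive. *Tfam*, the mitochondrial transcription factor, had 10.1, 10.7 and 11.6 FPKM in WT against 11.2, 13.4 and 11 in MCK-Musclin libraries, and *Mtif2*, an initiation factor of mitochondrial translation, was lower (log2 fold change -0.23, limma adjusted p = 0.297).

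The marker lists of other cells also differed between the iWAT libraries. Fast skeletal muscle markers summed to 9.01, 575 and 2953 FPKM for WT against 8.03, 107 and 119 FPKM for MCK-Musclin libraries. Relative to the WT mean, *Ppargc1a* in the same libraries stood at 1.03, 1.04 and 0.935 for WT against 0.910, 0.425 and 0.289 for MCK-Musclin. The 9 general adipocyte markers summed to between 16370 and 17581 FPKM in WT and between 14696 and 16643 in MCK-Musclin libraries, and all 9 had a negative log2 fold change with a median of -0.14. The brown adipocyte markers *Ucp1* and *Cidea* summed to 421, 607 and 773 FPKM in WT and to 467, 135 and 73.1 in MCK-Musclin libraries. The part of the cell make-up in the lower *Ppargc1a* was not tested.

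In BAT no member passed the tests between genotypes. *Ppargc1a* had 6.85, 12.8 and 9.70 FPKM in WT against 13.3, 12.4 and 8.27 in MCK-Musclin libraries, with a log2 fold change of 0.20 (95% interval -0.36 to 0.76, limma adjusted p = 0.972). *Ppargc1b* had 9.86, 16.6 and 12.9 FPKM in WT against 16.3, 16.5 and 13.8 in MCK-Musclin libraries, a log2 fold change of 0.25 (95% interval -0.16 to 0.67, limma adjusted p = 0.968). Both intervals include a decrease, and that of *Ppargc1a* overlaps its 95% interval in iWAT, from -1.54 to -0.14.

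*Prdm16* had 3.51, 5.85 and 5.91 FPKM in WT against 4.02, 9.41 and 4.68 in MCK-Musclin libraries of BAT (log2 fold change 0.16, standard error 0.30). *Ebf2* had 4.57, 9.32 and 5.87 against 5.62, 4.41 and 4.84 FPKM (log2 fold change -0.31, standard error 0.22). *Zfp516* lay between 0.838 and 1.93 FPKM in all 6 libraries (log2 fold change 0.08, standard error 0.20). The groups overlapped for each of these lineage factors.

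*Esrra* showed a split in BAT that cut across the genotypes. It had 40.9, 10.6 and 11.3 FPKM in WT against 36.2, 32 and 11.7 in MCK-Musclin libraries, so 3 libraries lay between 32 and 40.9 and the other 3 between 10.6 and 11.7. *Trmt112*, with which it shares exonic sequence, was between 8.33 and 12.1 FPKM in all 6. The log2 fold change of *Esrra* was 0.46 with a 95% interval from -0.88 to 1.80. *Esrrg* had 4.68, 6.21 and 3.64 FPKM in WT against 4.06, 4.04 and 3.28 in MCK-Musclin libraries (log2 fold change -0.27, standard error 0.18). *Esrrb* was between 0.578 and 0.972 FPKM in all 6 libraries, under the filter of 1 FPKM, and was not tested.

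*Irf4* had 6.82, 14.0 and 3.39 FPKM in WT against 7.12, 2.39 and 4.23 in MCK-Musclin libraries of BAT (log2 fold change -0.61, 95% interval -1.71 to 0.48). Here the 14 lymphocyte and plasma cell markers summed to between 1.25 and 2.48 FPKM, with *Ms4a1* and *Cd3d* at 0 in WT libraries 1 and 2. Their part in the *Irf4* values of BAT was not tested. *Nrf1* had 2.82, 3.44 and 2.48 FPKM in WT against 3.11, 2.35 and 1.86 in MCK-Musclin libraries (log2 fold change -0.20, standard error 0.17).

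**Figure D4:**
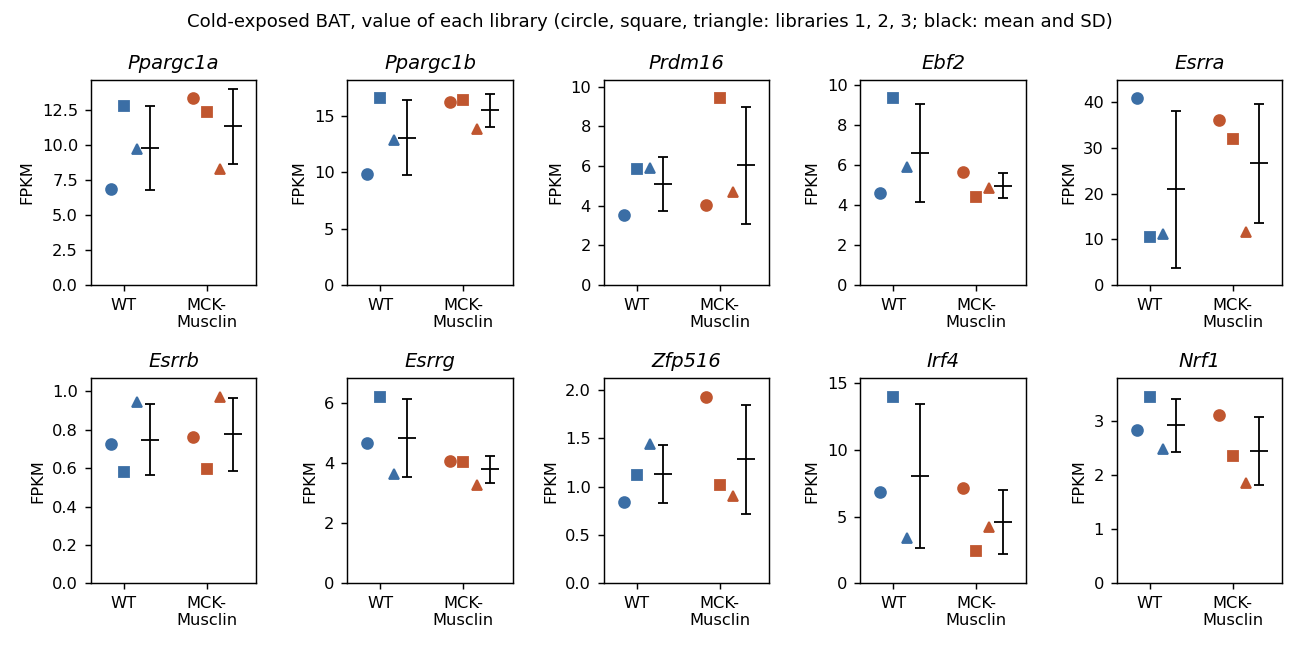
FPKM of the 10 genes in each BAT library after cold exposure, with the colours and symbols of the plot for iWAT. The groups overlap for all 10, and *Esrra* falls into libraries near 11 FPKM and libraries at 32 FPKM or more in both genotypes.

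Of the 9 members tested in BAT, 4 had a negative and 5 a positive log2 fold change, with a median of 0.08 against -0.01 over the 10893 genes tested. No member was past the study's cutoff for BAT, a log2 fold change beyond 0.3 at an unadjusted p under 0.05, again applied here to limma. Of all genes, 4.0% were past it. *Ostn* was the only gene of BAT with an adjusted p under 0.05 (limma), or 0.00918% of those tested, and 4.89% had an unadjusted p under 0.05. Groups that do not overlap were seen for no member, 5.63% of all genes in the lower and 4.38% in the higher direction. Among the 12 thermogenic targets the median was -0.04, and *Cox8b*, a subunit of cytochrome c oxidase, was the one past the cutoff, at 836 to 885 FPKM in WT against 571, 690 and 768 in MCK-Musclin libraries (log2 fold change -0.35, limma adjusted p = 0.968). The 16 oxidative targets had a median of -0.04 and none was past the cutoff, nor was any of the 25 other regulators. *Ssbp1*, which binds single-stranded mitochondrial DNA, was higher, with 39.3 to 41.2 FPKM in WT and 49.1 to 51.6 in MCK-Musclin libraries (log2 fold change 0.32, limma adjusted p = 0.929). Fast muscle markers summed to 378 to 576 FPKM in WT and 618 to 1294 in MCK-Musclin libraries of BAT, and their part in these values was not tested.

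The effect of MCK-Musclin in iWAT was then set against that in BAT by the interaction term, over 11645 genes in both tables. The libraries were treated as independent, with a single variance per gene over both depots. Whether both depots came from the same mice is not given in the sources used here. For *Ppargc1a* the difference was -1.05 on the log2 scale (standard error 0.42, limma unadjusted p = 0.0289, adjusted p = 0.374). For *Ppargc1b* it was -0.74 (standard error 0.31, limma unadjusted p = 0.0368, adjusted p = 0.392), with each coactivator more negative in iWAT. These were the members with an unadjusted p under 0.05, which 11.8% of all genes had. *Nrf1* had a difference of 0.45 (limma unadjusted p = 0.0529, adjusted p = 0.431) and *Esrra* of -0.73 with a standard error of 0.66. None of the 9 had an adjusted p under 0.05, as 0.00859% of all genes did, so a different effect in the depots was not shown for any of them.

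**Figure D5:**
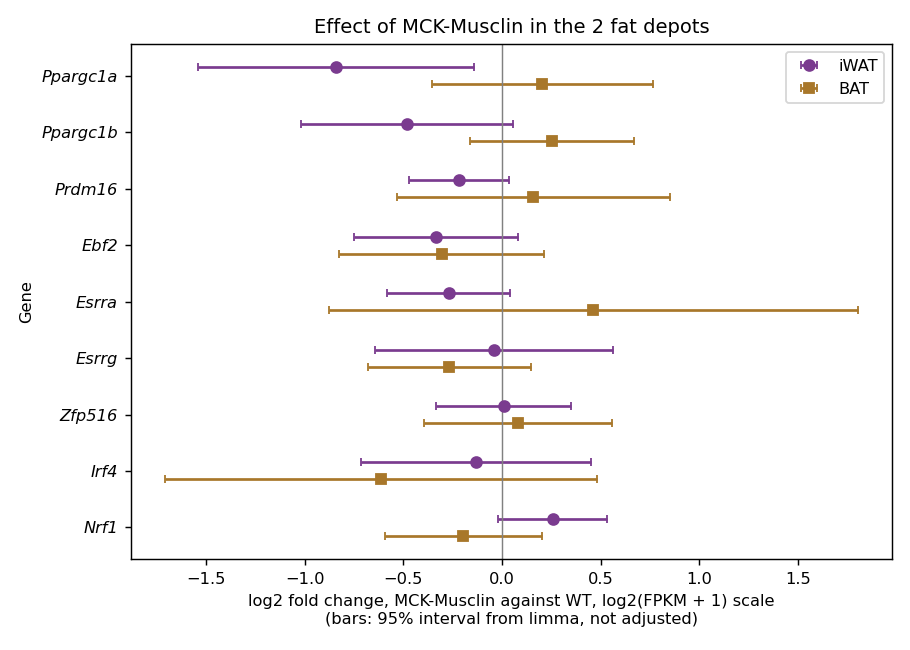
Log2 fold change of MCK-Musclin against WT mice for 9 genes in iWAT (circles) and BAT (squares), on the log2(FPKM + 1) scale with 95% intervals from limma. In iWAT *Ppargc1a* is at -0.84 with an interval from -1.54 to -0.14, the only one of the 18 intervals that leaves out 0, and the widest interval is that of *Esrra* in BAT.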

How the data were processed

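The members and gene lists were chosen with earlier results of these data known. Per the authors' methods, libraries of poly(A) RNA, primed at random, were read on a NovaSeq instrument. After filtering with fastp and Bowtie2, reads were aligned by HISAT2 in unstranded mode to mm10 (GRCm38), and StringTie gave FPKM. The authors deposited FPKM per gene and library in a table for 7 tissues, one for BAT and one for iWAT. The iWAT table also holds the log2 fold change, p-value, FDR and mean normalized signal that the authors deposited from DESeq2, and these columns were not used. The submitters' processing notes name Bowtie2 2.4.1, HISAT2 2.1.0 and Cuffdiff.

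In each depot, genes whose FPKM averaged 1 or more over its 6 libraries were compared by limma 3.58.1 in R 4.3.3, on values of log2(FPKM + 1), with moderated variances that follow a mean trend. Benjamini-Hochberg adjustment covered all genes tested. The difference between depots was the interaction term over 12 libraries. For single genes, exact two-sided permutation tests were run on FPKM. Single libraries were not tested. Tissue ratios were taken with 0.1 added to each FPKM. The model was tested on simulated data. Alternatives were a pseudocount of 0.1 (1 for tissue ratios), no filter, TPM rescaling, median-ratio scaling, centring on general adipocyte markers, a replicate block and leaving out each library. The text names the 10 members, genes of 5 lists, cell type markers and the 3 genes most like each member over the 7 tissues, of which a few are not reported here. Annotation was GENCODE M21 and promoters were RefSeq (GRCm38.p6). Python 3.11.15, pandas 2.3.3, scipy 1.17.1 and matplotlib 3.10.9 were used.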

Additional observations from a re-analysis of the deposited data

How the results depend on the processing

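No member had an adjusted p under 0.05 in either depot under any alternative, and the log2 fold changes of *Ppargc1a*, *Ppargc1b*, *Prdm16*, *Ebf2*, *Esrra* and *Nrf1* in iWAT kept their direction. The causes of the shifts below were not tested. In iWAT, centring on general adipocyte markers moved the median of all genes from 0.06 to 0.24 and gave 370 genes at an adjusted p under 0.05, 30 genes lower and 1612 higher at the cutoff and 0 members there, and *Irf4* (0.045) and *Esrrg* (0.14) changed sign. Rescaling to TPM gave 223 lower genes and median-ratio scaling 184, from 110, and *Zfp516* became -0.036 and -0.046. Of the genes at the cutoff 84.8% were higher, with 74.6% after TPM rescaling and 69.9% after median-ratio scaling. In BAT, centring gave 2 genes at an adjusted p under 0.05, 56 lower and 376 higher, from 1, 234 and 202, moved the median from -0.01 to 0.12 and the share of higher genes at the cutoff from 46.3% to 87.0%, and TPM rescaling moved that share to 56.6%. For the difference between depots, a pseudocount of 0.1 and the replicate block gave 0 genes, from 1. In the tissues, TPM rescaling left 3 members, from 5, at least 2-fold higher in brown than in white adipose tissue, with no share of all genes taken on that scale.

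Leaving out 1 library, genes at an adjusted p under 0.05 ran from 0 to 86 in iWAT, most without WT library 1, from 1 to 4 in BAT and from 0 to 80 for the difference between depots, most without WT library 1 of iWAT. Lower genes at the cutoff ran from 92 to 213 in iWAT, and members there from 0 to 2 in iWAT and from 0 to 2 in BAT. Changes of sign lay within -0.34 to 0.14 for *Irf4*, -0.18 to 0.16 for *Esrrg* and -0.083 to 0.10 for *Zfp516* in iWAT, within -0.0060 to 0.40 for *Ppargc1a*, -0.16 to 0.36 for *Prdm16* and -0.11 to 0.20 for *Zfp516* in BAT, and within -0.28 to 0.17 for *Ebf2* and -0.19 to 0.12 for *Zfp516* between depots.

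Replicate numbers were not used to pair libraries. Libraries of the same number deviated from their group means with correlations of 0.235, 0.061 and 0.107 in iWAT and -0.095, -0.0046 and 0.0094 in BAT. With the replicate block, *Ppargc1a* in iWAT had a log2 fold change of -0.84 and a limma adjusted p of 0.240, and 154 genes were lower and 620 higher at the cutoff. The deposited FPKM carry no read counts, so the precision of single values and the depth of iWAT are unknown. The counts of target genes past the cutoff under each setting were added after the data were seen.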
